A study of Mus musculus with 8 samples.

Results

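The 10 genes described here are markers and regulators of muscle wasting: 4 F-box or RING ubiquitin ligase genes (Fbxo32, Trim63, Fbxo30 and Fbxo31), the FoxO transcription factor genes Foxo1 and Foxo3, and 4 genes that respond to glucocorticoids or related stress (Klf15, Mt1, Mt2 and Ddit4). They were chosen by gene symbol among the 43628 rows of the deposited table. All 10 were found once each, and all 10 passed the expression minimum of 1 FPKM in at least 2 libraries, as did 12830 genes of the table. FPKM is a level that accounts for the length of the transcript and the number of fragments in the library. Quadriceps muscle was taken from 40 male mice aged 8 weeks. The wild-type group (WT) held 14 mice of strain C57BL/10ScSnJ. The mdx group held 15 mice of strain C57BL/10ScSn-Dmdmdx/J, which carry a mutation in the dystrophin gene and model Duchenne muscular dystrophy. The dy2J group held 11 dy2J/dy2J mice of strain C57BL/6J Lama2dy-2J, which carry a mutation in the laminin alpha-2 gene and model Lama2-related congenital muscular dystrophy. Pools of 4 to 6 mice (WT, mdx) or 5 to 6 mice (dy2J) were sequenced, so WT and mdx have 3 libraries each and dy2J has 2. Pools are the replicates. The spread between pools is smaller than that between mice would be, and the p-values measure the former.

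Muscle loses mass when protein breakdown outruns synthesis. Fbxo32 (atrogin-1, also called MAFbx) and Trim63 (MuRF1) encode ubiquitin ligases of muscle that mark proteins for the proteasome and that rise in fasting, denervation and glucocorticoid excess. FoxO factors switch on both genes, and insulin signalling through AKT keeps FoxO out of the nucleus. Glucocorticoids act through their receptor, a transcription factor that induces Klf15, Ddit4, Fkbp5 and the metallothionein genes among others. Metallothioneins are small cysteine-rich proteins that bind zinc and copper, and their genes also respond to metals through the factor MTF1.

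Promoter sequences are shown for Trim63, Mt1 and Mt2, because among the members these held the most matches to the letters of FoxO, glucocorticoid receptor and MTF1 motifs. For 9 of the 10 members RefSeq (GRCm38.p6) gave a window of 250 bases before the transcription start, read here 5′ to 3′ on the strand of the gene, with matches in capitals.
Trim63: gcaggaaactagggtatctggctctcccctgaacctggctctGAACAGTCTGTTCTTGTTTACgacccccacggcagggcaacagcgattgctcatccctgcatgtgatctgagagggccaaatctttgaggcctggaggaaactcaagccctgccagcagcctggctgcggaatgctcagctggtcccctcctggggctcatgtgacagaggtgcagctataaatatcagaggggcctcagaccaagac
Mt1: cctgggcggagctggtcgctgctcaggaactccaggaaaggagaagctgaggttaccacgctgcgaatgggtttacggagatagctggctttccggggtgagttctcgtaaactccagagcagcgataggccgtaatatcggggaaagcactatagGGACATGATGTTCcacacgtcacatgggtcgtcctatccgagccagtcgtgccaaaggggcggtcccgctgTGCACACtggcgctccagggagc
Mt2: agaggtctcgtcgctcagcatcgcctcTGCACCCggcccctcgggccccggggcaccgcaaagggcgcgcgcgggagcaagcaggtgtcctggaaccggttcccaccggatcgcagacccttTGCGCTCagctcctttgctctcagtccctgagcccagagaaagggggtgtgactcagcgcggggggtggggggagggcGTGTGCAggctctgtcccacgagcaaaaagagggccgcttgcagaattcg
The Trim63 window is chr4:134314870-134315119, the Mt1 window chr8:94178839-94179088 and the Mt2 window chr8:94172368-94172617, all on the plus strand. Both strands were searched. The glucocorticoid response element (GNACA and its reverse complement TGTNC around a spacer of NNN) was matched in Trim63 at chr4:134314912-134314924 and in Mt1 at chr8:94178995-94179007, and in 0.387% of all 32851 windows. In Trim63 the match overlaps a glucocorticoid half-site, AGAACA on the other strand, which 16.1% of windows hold. The FoxO element GTAAACA lies next to it in Trim63, on the other strand at chr4:134314926-134314932, and was matched in 3.17% of windows. Trim63 is 1 of 3 windows in the table with both the FoxO and the glucocorticoid element. The metal response element, TGCGCNC or TGCACNC, was matched 3 times in Mt2, once in Mt1 and once each in Klf15, Foxo3 and Ddit4. At least 1 such match stood in 21.4% of windows and 3 or more in 1.26%. Each window covers only the 250 bases before 1 annotated start of a gene. Sequence after that start and before any other start was not searched, so the counts are not those of a whole promoter. A match describes the letters only.

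The libraries fitted their labels at the mutated genes. Dmd was lower in mdx than in WT (log2 difference -2.47 ± 0.13 SE, limma adjusted p = 9.37e-06), and Lama2 was lower in dy2J than in WT (-0.75 ± 0.13, limma adjusted p = 0.0047). Across genes, libraries of 1 group correlated at 0.973 to 0.987 and those of different groups at 0.897 to 0.965. Markers of skeletal muscle fibres summed to at least 60190 FPKM in every library, so the labelled tissue was present, with Acta1 listed at 0 in WT 1. Of the 7 fibre markers 4 were called lower in each model against WT. Of the 6 markers of regenerating fibres all were called higher in each model, with summed FPKM of 21.6 to 33.5 for WT, 316 to 596 for mdx and 203 to 221 for dy2J. The 7 macrophage markers had sums of 128 to 147 FPKM for WT, 623 to 1294 for mdx and 357 to 437 for dy2J, and 7 and 5 of them were called higher. Adipocyte markers (5) had sums of 155 to 494 FPKM for WT, 334 to 461 for mdx and 683 to 876 for dy2J, with 0 and 2 called higher. Cfd made up 752 of the 876 FPKM in dy2J 1, and Lep was -0.41 in dy2J against WT (limma adjusted p = 0.32). Fibroblast markers (6) had sums of 577 to 623, 721 to 773 and 793 to 1171 FPKM, with 4 and 4 called higher. Erythroid markers (5) had sums of 339 to 469 FPKM for WT, 698 to 1069 for mdx and 669 to 686 for dy2J, with 5 and 4 called higher. Endothelial markers (5) had sums of 85.4 to 96.4, 61.1 to 70.1 and 69.8 to 71.9 FPKM, with 4 and 2 called lower. Of all tested genes 24.4% were called higher and 13.1% lower in mdx, and 12.1% and 9.43% in dy2J. In bulk tissue, fewer cells of a type and less RNA per cell cannot be told apart, and the part of these cell types in the results below was not tested.

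**Figure D1:**
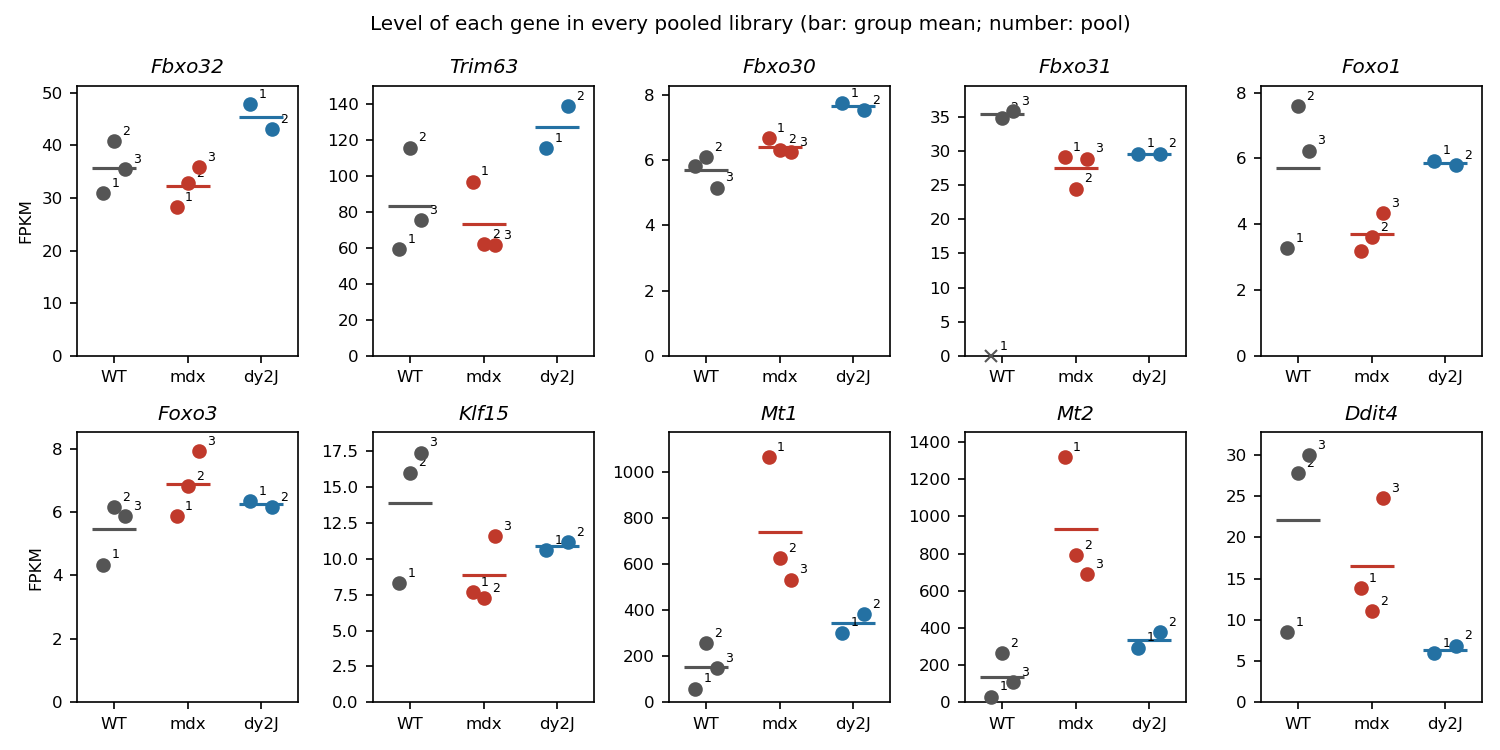
FPKM (linear axis from 0) of the 10 genes in each of the 8 pooled libraries; points are pools, numbered as in the labels, bars are group means, and the cross marks Fbxo31 in WT 1, listed at 0 and left out of its mean. The metallothioneins stand highest in mdx, Trim63 and Fbxo32 highest on average in dy2J, and the 3 WT pools are widely spread for Mt1, Mt2 and Ddit4.

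How many of these genes differed between groups depended on the measure used, and each count is given beside the share of all tested genes. In mdx against WT 3 of the 10 were called by limma at a Benjamini-Hochberg adjusted p below 0.05, with 2 higher (Mt1 and Mt2) and 1 lower (Fbxo31), where 37.5% of all tested genes were called. In dy2J against WT 1 of the 10 was called (Fbxo30, higher), against 21.5% of all tested genes. In dy2J against mdx 0 of the 10 were called, against 7.58% of all tested genes. An unadjusted limma p under 0.05 was found for 3 of the 10 in mdx against WT, 6 in dy2J against WT and 3 in dy2J against mdx (Fbxo32, Trim63 and Ddit4), beside 47.2%, 35.9% and 26.4% of all tested genes. None of the 3 shares called at the adjusted threshold is above the background (for dy2J against mdx 3.13% of all genes were called higher and 4.45% lower). In the authors' deposited table, 4 of the 10 had q below 0.05 in mdx against WT and 4 in dy2J against WT, beside 26.9% and 19.2% of all tested genes. The groups did not overlap for 4, 6 and 8 of the 10 members in the 3 comparisons, and for 50.7%, 61.2% and 42.2% of all tested genes. Strain differs with genotype in both comparisons of dy2J, so strain and genotype cannot be told apart there. The comparisons with WT share the WT pools.

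**Figure D2:**
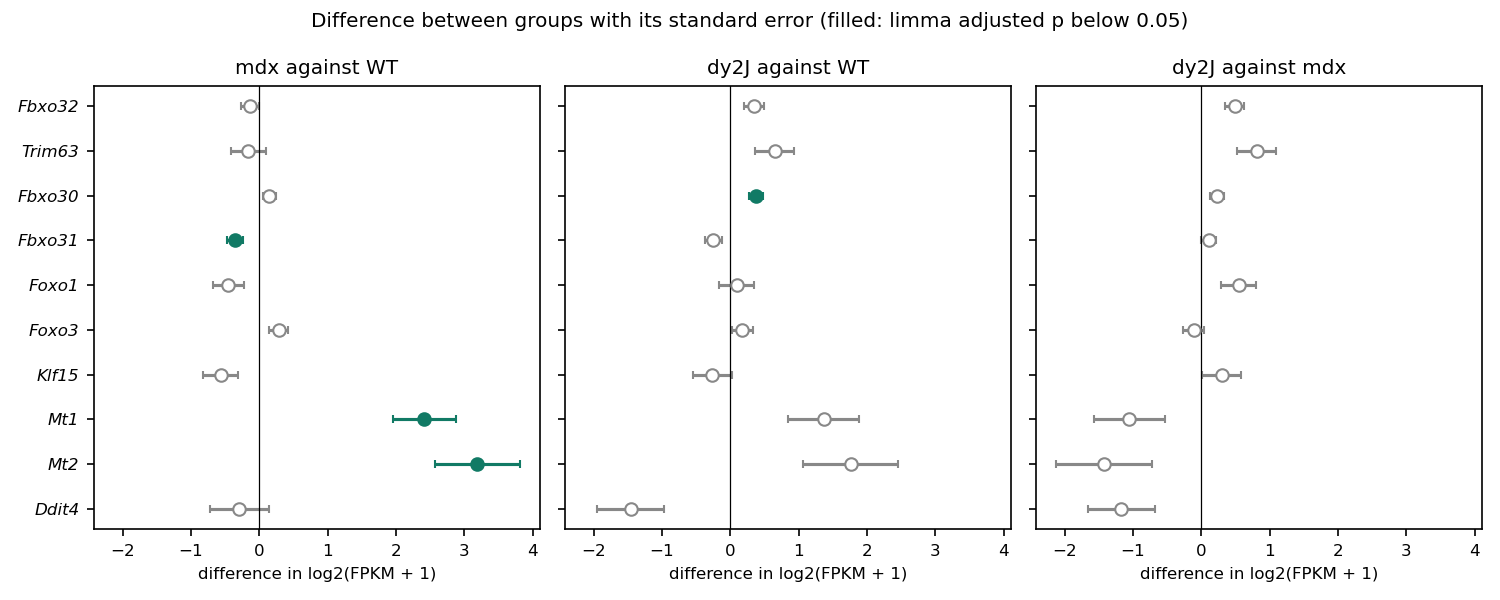
Difference in log2(FPKM + 1) of each gene in the 3 comparisons (points) with its standard error (bars); filled points have a limma adjusted p below 0.05. Filled are Mt1, Mt2 and Fbxo31 in mdx against WT and Fbxo30 in dy2J against WT.

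None of the 4 ligase genes passed as higher in mdx than in WT, and 1 (Fbxo30) did in dy2J. Fbxo32 (ENSMUSG00000022358, chromosome 15, 58175879 to 58214892, GRCm38) stood at 30.9, 40.9 and 35.5 FPKM in the WT pools, at 28.2, 32.8 and 35.8 in mdx and at 47.9 and 43.1 in dy2J. Both dy2J pools lay above every other pool, and WT and mdx overlapped. The log2 difference was -0.14 ± 0.13 (SE) in mdx against WT (limma adjusted p = 0.427), 0.34 ± 0.15 in dy2J against WT (limma adjusted p = 0.124) and 0.49 ± 0.15 in dy2J against mdx (limma adjusted p = 0.0766). None of the 3 passed. The last one passed when libraries were rescaled by their median ratio (limma adjusted p = 0.0295, and from 0.0295 to 0.321 across the 18 alternatives).

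Trim63 (ENSMUSG00000028834, chromosome 4, 134315120 to 134329629), which targets proteins of the sarcomere, was the more abundant of the pair. Its mean was 83.5 ± 29.2 FPKM over the WT pools (SD, n = 3), 73.5 ± 20.3 over the mdx pools (n = 3) and 127 ± 16.7 over the dy2J pools (n = 2). Its pools were at 59.2, 116 and 75.5 FPKM in WT, 96.9, 62.1 and 61.5 in mdx and 115 and 139 in dy2J. The highest WT pool, WT 2, stood level with dy2J 1, and the other WT pools lay in the range of mdx or just below it. Trim63 differed by -0.16 ± 0.25 on the log2 scale in mdx against WT, by 0.65 ± 0.28 in dy2J against WT and by 0.81 ± 0.28 in dy2J against mdx (limma adjusted p = 0.654, 0.135 and 0.114). The mdx difference changed sign without WT 2 (0.10). Without WT 2 the rise in dy2J against WT was 0.91 and passed (limma adjusted p = 0.0431, and from 0.0431 to 0.408 across the alternatives). The authors' deposited table gave q = 0.00569 for Trim63 in dy2J against WT and q = 0.232 for Fbxo32. Per library, the ratio of Trim63 to Fbxo32 FPKM ranged from 1.72 in mdx 3 to 3.43 in mdx 1, so pools of 1 genotype spanned the whole range.

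Fbxo30 (ENSMUSG00000047648, chromosome 10, 11281330 to 11298052), which encodes the F-box protein MUSA1, a ligase subunit of denervated muscle, was low and even. It stood at 5.80, 6.09 and 5.15 FPKM in WT, 6.66, 6.31 and 6.24 in mdx and 7.74 and 7.53 in dy2J. The 3 groups were ordered WT, mdx, dy2J with no overlap. Fbxo30 was 0.37 ± 0.10 higher on the log2 scale in dy2J than in WT (limma adjusted p = 0.0323), 0.15 ± 0.09 higher in mdx (limma adjusted p = 0.228) and 0.22 ± 0.10 higher in dy2J than in mdx (limma adjusted p = 0.204). The call in dy2J was narrow. It was lost without any 1 of the WT or dy2J pools (limma adjusted p = 0.0696, 0.057 and 0.104 without WT 1, 2 and 3, and 0.191 and 0.118 without dy2J 1 and 2), under quantile normalization and with a replicate block (limma adjusted p = 0.072 and 0.0973, and from 0.0297 to 0.191 across the 18 alternatives). In the authors' deposited table q was 0.0859.

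Fbxo31 (ENSMUSG00000052934, chromosome 8, 121549440 to 121578806), an F-box protein gene of cell cycle control, has a gap in WT. It was listed at 0 in WT 1, inside a run of 179 genes in a row at 0 on chromosome 8 (119910360 to 124357323) of which 51 were at 1 FPKM or more in every other library. That value was treated as missing, so WT rests on 2 pools, at 34.9 and 35.8 FPKM. The mdx pools were lower, at 29.1, 24.5 and 28.9, and dy2J was at 29.6 in both. The log2 difference of Fbxo31 was -0.36 ± 0.11 in mdx against WT, with WT 1 dropped (limma adjusted p = 0.0389), and -0.25 ± 0.12 in dy2J, which did not pass (limma adjusted p = 0.189). The mdx call held in 9 of the 18 alternatives (limma adjusted p from 0.0141 to 0.393). It was lost without WT 1, WT 2, WT 3, mdx 2, dy2J 1 or dy2J 2 (limma adjusted p = 0.0503, 0.128, 0.155, 0.0579, 0.0653 and 0.0652), with the replicate block and in a fit of the compared groups alone (limma adjusted p = 0.11 and 0.0646), and with the 0 kept the difference turned to 1.37. The authors' deposited table, which includes WT 1, gave q = 0.974.

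The wider set of ubiquitin genes (22, of which 20 were tested) fell more often than it rose. In mdx 1 was higher and 7 lower than in WT, and in dy2J 1 and 5, against 24.4% higher and 13.1% lower of all genes in mdx and 12.1% and 9.43% in dy2J. The median log2 difference was -0.13 in mdx and -0.15 in dy2J, beside 0.07 and 0.01 over all genes. Without WT 1, 2 or 3 the dy2J count was 3 called, and without dy2J 1 and 2 it was 1 and 2. Wwp1, a HECT-type ubiquitin ligase gene, fell in both models, from 88.6 ± 7.03 FPKM in WT to 46.3 ± 5.53 in mdx and 48.2 ± 4.03 in dy2J (-0.92 and -0.87, limma adjusted p = 0.000638 and 0.00316), in each of the 18 alternatives. Fbxo40, a muscle F-box gene that targets insulin receptor substrate 1, fell in mdx from 123 ± 5.89 to 76.3 ± 12.5 FPKM (-0.69, limma adjusted p = 0.005). Trim54, a relative of Trim63, fell in mdx from 125 ± 5.13 to 83.5 ± 11.7 FPKM (-0.58, limma adjusted p = 0.00694). These mdx calls held in all 18 alternatives. In dy2J Fbxo40 and Trim54 were also lower than in WT (-0.51 and -0.53, limma adjusted p = 0.0465 and 0.0282). Those calls held in 9 and 11 of 18 alternatives. Trim72, the membrane repair protein MG53, was the gene of this list called higher in mdx (0.45, limma adjusted p = 0.00982) and in dy2J (0.59, limma adjusted p = 0.00996), the latter lost without dy2J 1 or dy2J 2 (limma adjusted p up to 0.0738 over the alternatives). Ubr2, a ligase of the N-end rule pathway, fell in dy2J from 18.8 ± 0.917 to 11.7 ± 1.16 FPKM (-0.64, limma adjusted p = 0.00527). Without dy2J 1 it did not pass. In mdx Ubr2 was also lower than in WT (-0.41, limma adjusted p = 0.0117), in all 18 alternatives.

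Neither Foxo1 nor Foxo3 was called in any of the 3 comparisons, and both were expressed at a few FPKM in every pool. Foxo1 (ENSMUSG00000044167, chromosome 3, 52268336 to 52353221) stood at 3.28, 7.59 and 6.24 FPKM in WT, 3.20, 3.62 and 4.33 in mdx and 5.93 and 5.80 in dy2J. WT 1 lay among the mdx pools, and the other WT pools and both dy2J pools lay above them. The log2 difference of Foxo1 was -0.45 ± 0.23 in mdx (limma adjusted p = 0.148), 0.09 ± 0.25 in dy2J (limma adjusted p = 0.823) and 0.55 ± 0.25 in dy2J against mdx (limma adjusted p = 0.209). Without WT 1 the mdx difference was -0.75 and passed (limma adjusted p = 0.007), and it passed under quantile normalization (limma adjusted p = 0.0365, and from 0.007 to 0.429 across the 17 alternatives that tested it). The authors' deposited table gave q = 0.00201. Foxo3 (ENSMUSG00000048756, chromosome 10, 42181841 to 42276755) stood at 4.34, 6.16 and 5.88 FPKM in WT, 5.87, 6.81 and 7.92 in mdx and 6.35 and 6.15 in dy2J. The groups overlapped, and no comparison passed (log2 differences of 0.29 ± 0.14, 0.18 ± 0.16 and -0.11 ± 0.16, limma adjusted p = 0.136, 0.445 and 0.694). The ratio of Foxo1 to Foxo3 FPKM was 0.544, 0.532 and 0.547 in the mdx pools, below the 0.755, 1.23 and 1.06 of WT and the 0.934 and 0.943 of dy2J. The mdx pools did not overlap the others in that ratio, both dy2J pools lay within the WT range, and the ratio was not tested.

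**Figure D3:**
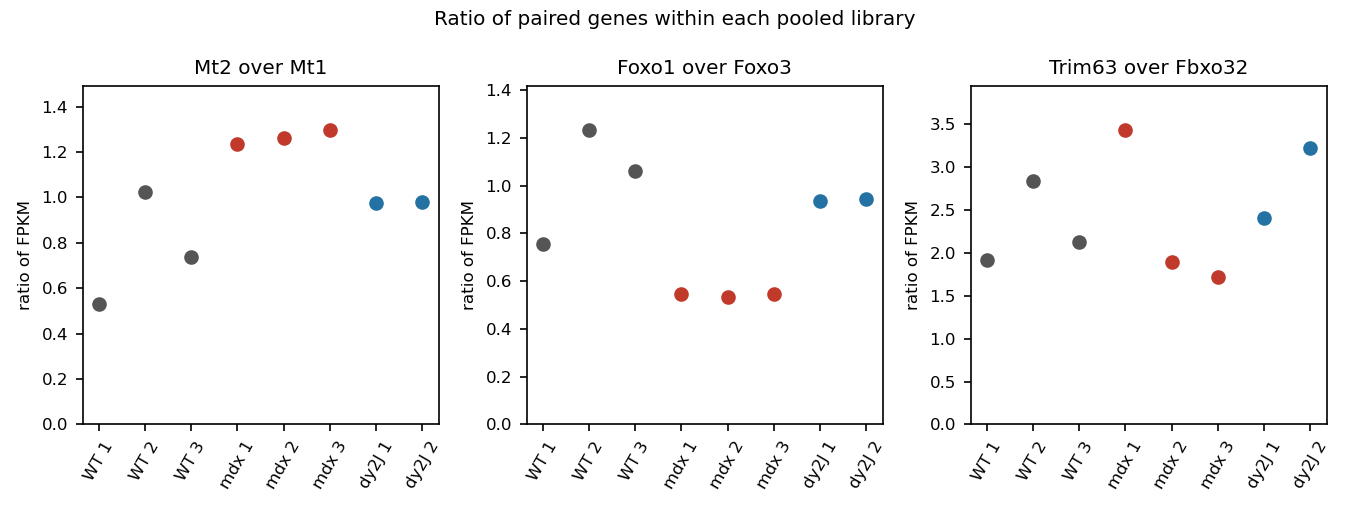
Ratio of FPKM between paired genes in each pooled library (linear axes from 0; colour gives the genotype). Foxo1 over Foxo3 lies near 0.54 in every mdx pool and above 0.75 elsewhere, Mt2 over Mt1 is highest in mdx, and Trim63 over Fbxo32 spans its whole range within mdx.

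Around the FoxO factors, 13 relatives and insulin pathway genes were tested. In mdx 1 was higher and 4 lower than in WT (median log2 difference -0.33), and in dy2J 0 and 2 (median -0.14). These are 38.5% of the list in mdx and 15.4% in dy2J, beside 37.5% and 21.5% of all tested genes. Without WT 2, WT 3, mdx 2, dy2J 1 or dy2J 2 the mdx count of 5 was 2, 2, 3, 3 and 3, and without WT 1, WT 2, WT 3, mdx 1 or dy2J 1 the dy2J count was 1. The insulin receptor gene Insr fell in mdx from 12.4 ± 0.514 to 8.14 ± 0.927 FPKM (-0.55, limma adjusted p = 0.00374). Irs2, an insulin receptor substrate, fell from 3.63 ± 0.515 to 2.03 ± 0.0829 FPKM (-0.61, limma adjusted p = 0.00671). Both calls held in every alternative that tested the gene. Irs2 was higher in dy2J than in mdx (0.65, limma adjusted p = 0.0319), in 10 of 17 alternatives (limma adjusted p up to 0.241), and not without WT 3, mdx 2, mdx 3, dy2J 1 or dy2J 2. Foxo4, another FoxO gene, was lower in dy2J (25.5 ± 2.03 FPKM) than in WT (36.2 ± 2.53), by -0.49 (limma adjusted p = 0.0451). That call held in 9 of 18 alternatives and was lost without WT 1, WT 2, WT 3, mdx 1, dy2J 1 or dy2J 2. Foxo4 was also lower in mdx than in WT (-0.39, limma adjusted p = 0.0437), a call that held in 8 of 18 alternatives. Sgk1, a kinase gene induced by glucocorticoids and related to AKT, stood at 80.7, 121 and 142 FPKM in WT, 74.7, 65.7 and 112 in mdx and 35.1 and 33.7 in dy2J. It was lowest in both dy2J pools, -1.67 ± 0.26 against WT (limma adjusted p = 0.00368, called in all 18 alternatives). Against mdx Sgk1 was -1.23 ± 0.26 (limma adjusted p = 0.0267). That call was lost without mdx 3, dy2J 1 or dy2J 2 and with no expression minimum (limma adjusted p up to 0.155 over the alternatives).

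Reported FoxO target genes other than ligases moved in both directions. Of 24 tested, 5 were higher and 6 lower in mdx than in WT (median 0.06) and 3 and 3 in dy2J (median -0.09). These are 45.8% of the list in mdx and 25% in dy2J, beside 37.5% and 21.5% of all tested genes. The median over all genes was 0.07 in mdx and 0.01 in dy2J. Without WT 1, mdx 1 or mdx 3 the mdx count of 11 was 6, 7 and 7, and without dy2J 1 or dy2J 2 the dy2J count of 6 was 0 and 2. Ctsl, the lysosomal protease cathepsin L, rose in mdx from 55.1 ± 4.57 to 160 ± 23.2 FPKM (1.51, limma adjusted p = 0.000111). Txnip, an inhibitor of glucose uptake and thioredoxin, fell from 349 ± 65.8 FPKM in WT to 178 ± 29.7 in mdx (-0.97, limma adjusted p = 0.00243). Both calls held in all alternatives. Ctsl was also higher in dy2J than in WT, at 87.4 ± 6.13 FPKM (0.66, limma adjusted p = 0.0123), in 17 of 18 alternatives. Txnip was also lower in dy2J, at 177 ± 2.68 FPKM (-0.96, limma adjusted p = 0.00854), a call lost without dy2J 1 or dy2J 2 (limma adjusted p up to 0.0775). Ulk1, a kinase that starts autophagy, fell in dy2J from 19.98 ± 1.23 to 12.2 ± 0.505 FPKM (-0.67, limma adjusted p = 0.00645), and Ctsl was -0.86 in dy2J against mdx (limma adjusted p = 0.0095). Both were lost without dy2J 1 or dy2J 2. Ulk1 was also lower in mdx than in WT (-0.44, limma adjusted p = 0.0122), in all 18 alternatives. Map1lc3a, which encodes an LC3 protein of autophagosomes, was -0.73 in dy2J against mdx (limma adjusted p = 0.0419), in 8 of 18 alternatives (limma adjusted p up to 0.196), and was lost without any 1 library but mdx 2. Pdk4, a kinase gene of fasting metabolism that FoxO induces, was not called in either model. Its WT mean of 476 ± 106 FPKM stood beside 367 ± 65.2 for mdx and 385 ± 58.7 for dy2J (limma adjusted p = 0.166 and 0.362).

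Klf15 and Ddit4, both induced by glucocorticoids, were highest in 2 of the WT pools. Klf15 (ENSMUSG00000030087, chromosome 6, 90462576 to 90475238), a transcription factor that drives amino acid breakdown, stood at 8.29, 16.0 and 17.4 FPKM in WT, 7.68, 7.26 and 11.5 in mdx and 10.6 and 11.1 in dy2J. WT 2 and WT 3 lay above all other pools, and WT 1 lay within the mdx range. The log2 difference of Klf15 was -0.56 ± 0.26 in mdx, -0.27 ± 0.29 in dy2J and 0.30 ± 0.29 in dy2J against mdx (limma adjusted p = 0.114, 0.537 and 0.551). Without WT 1 the mdx difference was -0.87 and passed (limma adjusted p = 0.0108), and it passed with the replicate block (limma adjusted p = 0.0444, and from 0.0108 to 0.317 across the alternatives). The authors' deposited table gave q = 0.000749 in mdx and q = 0.155 in dy2J.

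Ddit4 (ENSMUSG00000020108, chromosome 10, 59949675 to 59951770), which encodes REDD1, an inhibitor of the growth kinase complex mTORC1, had its lowest levels in dy2J. It stood at 8.47, 27.7 and 29.9 FPKM in WT, 13.9, 11.0 and 24.8 in mdx and 5.94 and 6.87 in dy2J. Both dy2J pools lay below every other pool, with WT 1 next. The log2 difference was -1.46 ± 0.49 in dy2J against WT (limma adjusted p = 0.0621), -1.17 ± 0.49 in dy2J against mdx (limma adjusted p = 0.169) and -0.29 ± 0.44 in mdx against WT (limma adjusted p = 0.637). The last changed sign without WT 3 (0.013). Without WT 1 the dy2J difference from WT was -2.01 and passed (limma adjusted p = 0.00784, and from 0.00784 to 0.261 across the alternatives). The authors' deposited table gave q = 0.000749 for dy2J against WT and q = 0.0544 for mdx against WT.

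WT 1 stood apart from WT 2 and WT 3 across these genes. Of the 9 members with a value in every WT pool, WT 1 was the lowest of the 3 for 8, the exception being Fbxo30, beside 38.4% of all tested genes. Of 20 tested glucocorticoid genes WT 1 was the lowest for 16. No mdx pool was the lowest for most members. The pools mdx 1, 2 and 3 were lowest for 3, 3 and 4 of the 10, beside 44.4%, 38.4% and 17.2% of all tested genes. The coefficient of variation (SD as a percent of the mean) over the WT pools was 87.5% for Mt2, 64.0% for Mt1, 53.6% for Ddit4, 38.7% for Foxo1, 35.3% for Klf15 and 34.9% for Trim63, beside a median of 9.55% over all genes. For each of these 6 genes at least 93.6% of genes varied less. Fbxo30 varied by 8.44% and Fbxo32 by 13.9%. Per1, a clock gene that glucocorticoids induce, stood at 6.33 FPKM in WT 1 and at 26.1 and 21.6 in WT 2 and 3, and Cebpd, a factor of the acute stress response, at 8.63, 30.5 and 33.6. Both genes were picked after their values were seen.

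**Figure D4:**
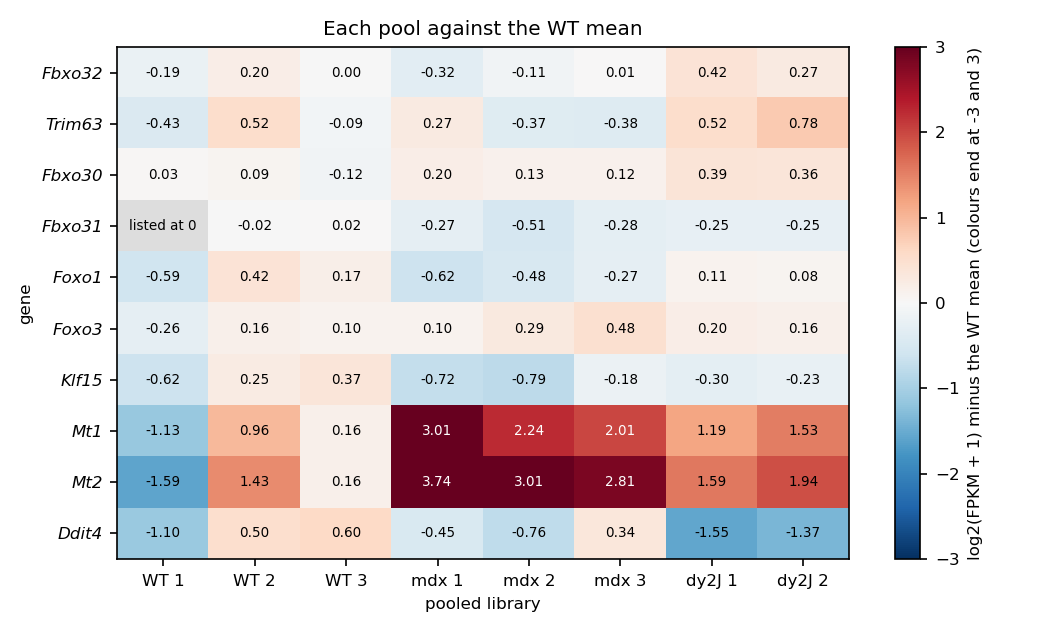
Difference of each pool from the WT mean in log2(FPKM + 1), by gene (rows) and library (columns); red is higher and blue lower, and grey marks the value listed at 0. WT 1 is below the WT mean for every gene shown with a value but Fbxo30, mdx pools are above it by 2.01 to 3.74 for the metallothioneins, and Ddit4 is lowest in dy2J.

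The glucocorticoid genes as a set (21, of which 20 were tested) were split. In mdx 5 were higher and 5 lower than in WT (median log2 difference 0.06), in dy2J 3 and 2 (median -0.17), and in dy2J against mdx 1 and 4 (median -0.31, beside -0.08 over all genes). The called shares of the list were 50%, 25% and 25%, beside 37.5%, 21.5% and 7.58% of all tested genes. Without WT 3, dy2J 1 or dy2J 2 the dy2J count of 5 against WT was 3, 2 and 3, and without mdx 3, dy2J 1 or dy2J 2 the count of 5 against mdx was 3, 1 and 2. The receptor gene Nr3c1 fell in mdx from 25.1 ± 2.01 to 19.0 ± 0.235 FPKM (-0.38, limma adjusted p = 0.0102). Hsd11b1, whose enzyme regenerates active glucocorticoid inside cells, fell in mdx from 8.53 ± 1.996 to 4.98 ± 0.646 FPKM (-0.66, limma adjusted p = 0.0129). Zbtb16, a transcription factor gene that glucocorticoids induce, fell in mdx from 17.6 ± 4.91 to 8.30 ± 1.31 FPKM (-0.97, limma adjusted p = 0.00523). These 3 calls held in all 18 alternatives.

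Of the 5 genes of that set called higher in mdx, Cdkn1a and Lcn2 rose most. Next were Rgs2 (1.54) and Angptl4 (1.35, limma adjusted p = 0.000758 and 0.00761), both called in all 18 alternatives. In dy2J Rgs2 and Angptl4 were also higher than in WT (1.08 and 1.11, limma adjusted p = 0.0118 and 0.0437). Those calls held in 17 and 10 of 18 alternatives. What raised these genes was not tested. Cdkn1a, the cell cycle inhibitor p21 and a p53 target, rose from 9.59 ± 4.12 FPKM in WT to 60.2 ± 8.39 in mdx (2.60, limma adjusted p = 0.000266) and 45.8 ± 4.82 in dy2J (2.22, limma adjusted p = 0.0017). Lcn2, the iron carrier lipocalin-2 of inflamed tissue, rose from 3.08 ± 1.002 to 20.3 ± 0.566 FPKM in mdx (2.41, limma adjusted p = 0.000291) and stood at 4.10 ± 2.31 in dy2J, -2.14 ± 0.28 below mdx (limma adjusted p = 0.00321). Fkbp5, which encodes a co-chaperone that dampens the receptor and is a standard readout of its activity, stood at 15.7, 20.6 and 24.1 FPKM in WT, 24.5, 28.9 and 37.1 in mdx and 10.1 and 12.4 in dy2J. The 3 groups did not overlap, in the order dy2J, WT, mdx. The log2 difference of Fkbp5 was -1.33 ± 0.21 in dy2J against mdx (limma adjusted p = 0.00779), and of the 18 alternatives only leaving out dy2J 1 ended the call (limma adjusted p = 0.0814, and from 0.0025 to 0.0814 across the alternatives). Against WT it was 0.56 in mdx and -0.77 in dy2J (limma adjusted p = 0.0417 and 0.0302), calls that held in 9 and 13 of 18 alternatives (limma adjusted p up to 0.136 and 0.216). The first was lost without WT 1, WT 2, mdx 2, mdx 3, dy2J 1 or dy2J 2, and the second without WT 2, WT 3, dy2J 1 or dy2J 2. Tsc22d3, another gene the receptor induces, was not called in any comparison. Its means were 104 ± 18.5, 132 ± 40.5 and 91.0 ± 20.7 FPKM for WT, mdx and dy2J (limma adjusted p = 0.295, 0.618 and 0.234).

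Amino acid breakdown genes and other KLF genes, of which 13 were tested, had 0 higher and 6 lower members in mdx (median -0.41) and 1 and 3 in dy2J (median -0.24). Among all tested genes 24.4% were called higher and 13.1% lower in mdx, and 12.1% and 9.43% in dy2J. Without WT 1, 2 or 3 the mdx count was 3, 1 and 2, and without mdx 1 or mdx 2 it was 2. Under quantile normalization and under median-ratio rescaling it was 10, and with no expression minimum 2. Without dy2J 1 or dy2J 2 the dy2J count of 4 was 1. Gpt2, the mitochondrial alanine aminotransferase, fell in dy2J from 125 ± 9.12 to 38.4 ± 5.59 FPKM (-1.68, limma adjusted p = 0.000889). Bckdhb, a subunit of the enzyme that breaks down branched-chain amino acids, fell in mdx from 19.3 ± 1.60 to 12.5 ± 2.28 FPKM (-0.60, limma adjusted p = 0.00838). Both calls held in all 18 alternatives. In mdx Gpt2 was -0.61 against WT (limma adjusted p = 0.0223), in 13 of 18 alternatives (limma adjusted p up to 0.0731), and not without WT 1, WT 2, mdx 1 or mdx 2. Between the models, Gpt2 was -1.08 and Bckdhb 0.68 in dy2J against mdx (limma adjusted p = 0.0141 and 0.0294), both lost without dy2J 1 or dy2J 2 (limma adjusted p up to 0.121 and 0.178), and Bckdhb also without WT 2. Klf4, a relative of Klf15, was 0.73 higher in dy2J than in WT (limma adjusted p = 0.0333), likewise lost without dy2J 1 or dy2J 2 (limma adjusted p up to 0.208). Bcat2, the first enzyme of that pathway and a gene that KLF15 induces, was not called in either model. Its means were 29.9 ± 1.63, 25.1 ± 3.55 and 26.5 ± 2.02 FPKM for WT, mdx and dy2J (limma adjusted p = 0.115 and 0.379).

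Among 18 tested genes of mTORC1, its regulators and the ATF4 pathway, 2 were higher and 2 lower in mdx and 2 and 3 in dy2J, with medians of -0.06 and -0.13. These are 22.2% of the list in mdx and 27.8% in dy2J, beside 37.5% and 21.5% of all tested genes. Without WT 2, WT 3, mdx 1 or mdx 2 the mdx count of 4 was 2, and without WT 2, dy2J 1 or dy2J 2 the dy2J count of 5 was 3, 1 and 3. Asns, the asparagine synthetase gene that ATF4 induces, rose from 1.18 ± 0.359 FPKM in WT to 4.31 ± 0.884 in mdx and 4.88 ± 0.0699 in dy2J (1.28 and 1.44, limma adjusted p = 0.000583 and 0.00123), in all alternatives that tested it. Deptor, an inhibitor of mTOR, stood at 37.2 ± 3.85 FPKM in WT and 36.5 ± 5.23 in mdx and fell to 21.3 ± 1.20 in dy2J (-0.77 against WT, limma adjusted p = 0.00621). That call was lost without dy2J 1 (limma adjusted p = 0.0717). Against mdx Deptor was -0.74 in dy2J (limma adjusted p = 0.0168), lost without dy2J 1 or dy2J 2 (limma adjusted p up to 0.129). Eif4ebp1, a repressor of translation that mTORC1 inactivates, was 0.43 higher in mdx than in WT (limma adjusted p = 0.0251). It was lost without WT 1, mdx 1 or mdx 3 and under median-ratio rescaling (limma adjusted p up to 0.0737). Ddit4l, the closest relative of Ddit4, was -0.92 in dy2J against WT (limma adjusted p = 0.0458), in 10 of 18 alternatives (limma adjusted p up to 0.205), and not without WT 1, WT 2, mdx 1, dy2J 1 or dy2J 2.

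**Figure D5:**
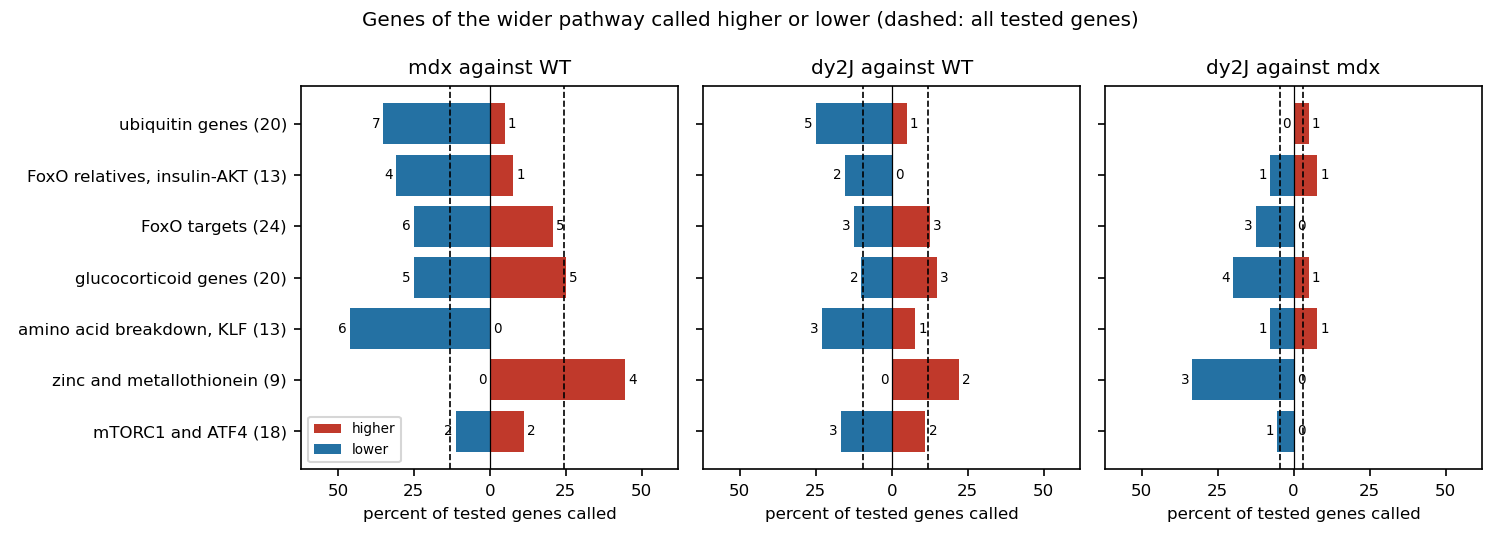
Percent of tested genes of each wider list (rows, number tested in parentheses) called higher (red, right) or lower (blue, left) in the 3 comparisons; numbers at the bars are genes and dashed lines give the same percent over all tested genes. Ubiquitin and amino acid genes lean lower in both models, and of the 9 zinc and metallothionein genes 4 are drawn as higher in mdx, 1 of which, Mt4, passed the expression minimum through mdx alone.

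Mt1 and Mt2 had the largest differences of the 10 members in mdx against WT. Mt1 and Mt2 are neighbours on chromosome 8 (Mt2, ENSMUSG00000031762, 94172618 to 94173567, and Mt1, ENSMUSG00000031765, 94179089 to 94180325). Mt2 stood at 31.7, 263 and 109 FPKM in the WT pools, 1317, 791 and 690 in mdx and 295 and 376 in dy2J. Mt1 stood at 59.8, 258 and 148 FPKM in WT, 1066, 626 and 533 in mdx and 303 and 384 in dy2J. For both genes every mdx pool lay above every dy2J pool and every dy2J pool above every WT pool, while the WT pools spanned an 8.30-fold range for Mt2 and a 4.31-fold range for Mt1. In mdx the mean was 6.92 times the WT mean for Mt2 and 4.78 times for Mt1. The log2 difference in mdx was 3.19 ± 0.62 for Mt2 and 2.42 ± 0.47 for Mt1 (limma adjusted p = 0.00431 and 0.00408), higher in 3 of 3 pools, and both passed in all 18 alternatives (limma adjusted p up to 0.0222 and 0.0212). The size rested on the WT pools. For Mt2 it was 2.39 without WT 1 and 3.90 without WT 2, and for Mt1 1.85 and 2.90.

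In dy2J the metallothioneins lay between. Mt2 was 1.76 ± 0.70 and Mt1 1.36 ± 0.52 above WT on the log2 scale, which did not pass (limma adjusted p = 0.103 and 0.0939). Without WT 2, the highest WT pool, they were 2.48 and 1.85 and passed (limma adjusted p = 0.0196 and 0.0298, with upper ends of 0.301 and 0.299 across the alternatives). Both had q = 0.000749 in either model in the authors' deposited table. Against mdx, Mt2 and Mt1 were -1.42 ± 0.70 and -1.05 ± 0.52 (limma adjusted p = 0.229 and 0.235). Mt2 passed there when the 2 groups were fitted alone (limma adjusted p = 0.0406, and from 0.0406 to 0.524 across the alternatives). The ratio of Mt2 to Mt1 FPKM was 0.531, 1.02 and 0.739 in WT, 1.24, 1.26 and 1.30 in mdx and 0.975 and 0.980 in dy2J, so the mdx pools were above all others, and both dy2J pools lay within the WT range. No stretch of 50 bases of the longest Mt1 or Mt2 transcript was found in a transcript of any other gene. The summed markers of macrophages, regenerating fibres and erythroid cells, given above, also had WT lowest and mdx highest, and those of endothelial cells had WT highest. Their part in the metallothionein levels was not tested.

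Of 10 other zinc genes 9 were tested. Among them Mt4 passed the expression minimum through mdx alone and is left out of the counts, a choice made after its values were seen. Of the other 8, 3 were higher and 0 lower in mdx (median log2 difference 0.30), and 2 and 0 in dy2J (median 0.19). Over all tested genes 24.4% were called higher and 13.1% lower in mdx, and 12.1% and 9.43% in dy2J. Without any 1 of the WT or dy2J pools the dy2J count was 1. Mt3, a metallothionein known best from brain, had means of 1.72 ± 0.463 FPKM for WT, 17.5 ± 3.45 for mdx and 8.69 ± 0.0314 for dy2J. The groups did not overlap. Mt3 rose by 2.76 ± 0.16 on the log2 scale in mdx and by 1.84 ± 0.18 in dy2J (limma adjusted p = 1.72e-05 and 0.000445), in all 18 alternatives. Slc39a14, a zinc importer of inflamed tissue, rose in mdx from 7.80 ± 1.41 to 19.8 ± 2.25 FPKM (1.25, limma adjusted p = 0.000417, called in all alternatives) and stood at 9.51 ± 0.996 in dy2J (limma adjusted p = 0.254 against WT). It was -0.98 in dy2J against mdx (limma adjusted p = 0.00863), lost without dy2J 1 or dy2J 2 (limma adjusted p up to 0.0871). Slc39a1, another zinc importer, was 0.34 higher in dy2J than in WT (limma adjusted p = 0.0388), and not without any 1 of the WT or dy2J pools (limma adjusted p up to 0.233). In mdx Slc39a1 was also higher than in WT (0.52, limma adjusted p = 0.00206), in all 18 alternatives. Mt4 was listed at 1.18 and 1.48 FPKM in mdx 1 and 2 and at 0 in the other 6 libraries. No fold change or call is given for it.

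Fbxo32, Trim63, Klf15 and Mt2 were each compared with 12491 other tested genes, leaving out 338 that have no name, by the root mean square difference of their log2(FPKM + 1) from the WT mean over the 8 libraries. Closest to Fbxo32 were Mycbp2 (0.106), Aldh2 (0.109) and Tmem204 (0.111), where the median gene was at 0.373. Closest to Trim63 were Flnc (0.179), Twf2 (0.191) and Nfil3 (0.198), with a median of 0.566. Flnc stood at 63.5, 126 and 101 FPKM in WT, 84.6, 75.2 and 69.7 in mdx and 119 and 162 in dy2J, the same order of groups as Trim63. Closest to Klf15 were 1700113H08Rik (0.118), Mn1 (0.1204) and Klhl38 (0.133). 1700113H08Rik stood at only 0.174 to 1.635 FPKM over the 8 libraries, a level at which log2(FPKM + 1) understates changes. Klhl38 was at 6.94, 14.8 and 13.8 FPKM in WT, 6.87, 6.95 and 8.81 in mdx and 10.9 and 9.98 in dy2J, with WT 1 at the mdx level. Closest to Mt2 were Ankrd1 (0.524), Plac8 (0.539) and Serpina3n (0.560), followed closely by Mt1 (0.562), with a median of 2.25. Ankrd1, a stretch-responsive muscle gene, ranged from 5.85 FPKM in WT 1 to 153 in mdx 1. Within the members Fbxo30 and Foxo3 (0.217), Fbxo32 and Fbxo30 (0.230) and Foxo1 and Klf15 (0.235) were the closest pairs, while Fbxo32 and Trim63 differed by 0.355. These are descriptions over libraries that share genotype and pool. Flnc and Klhl38 were picked for their likeness over these same libraries, so their shared patterns follow from that choice.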

How the data were processed

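Total RNA of quadriceps muscle, pooled within genotype, was sequenced as 8 libraries, grouped by their labels. The authors deposited 1 table with FPKM per library and with q-values for each model against WT, per the file headers. Tools listed in the submitters' processing notes are Cufflinks 2.2.1 with Cuffdiff and Cuffnorm, TopHat2 2.0.13, Trim Galore 0.3.7 and bcl2fastq 2.15.0.4, and the build is GRCm38. Settings are not given. Scaling between libraries and use of strand are not given in the sources used here, so overlapping genes are uncertain. Low FPKM were not whole multiples of 1 step (23.7% to 25.8% within a tolerance of 0.1, where 20% is chance), so reads and depth are unknown, and summed FPKM ranged from 556218 to 785513.

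Values were analysed as log2(FPKM + 1), which understates changes of low genes, in R 4.3.3 with limma 3.58.1 (1 term per genotype, all 8 libraries, mean-variance trend, two-sided, Benjamini-Hochberg over the 12830 genes at 1 FPKM or more in at least 2 libraries, threshold 0.05). An exact 0 was set to missing where all other libraries of the group were at 1 FPKM or more, for 109 of those genes. An exact permutation test of 1 gene cannot give p below 0.1 here. The scripts were tested on simulated data. Figures used Python 3.11.15 and matplotlib 3.10.9. Promoters came from RefSeq, GRCm38.p6.

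The members and the 7 wider lists (117 symbols, all found) were chosen with earlier results of these data known. Named are all members, from each list and comparison the 2 called genes with the largest change and no overlap between groups, and the 3 genes most like each of 4 members. 1 gene that this rule selects is not reported here. Other genes named (Nr3c1, Hsd11b1, Zbtb16, Tsc22d3, Pdk4, Bcat2, Per1, Cebpd, Trim54, Trim72, Deptor and Fkbp5 against WT, and Slc39a14 against WT in dy2J) were chosen after their values were seen. The same holds for Slc39a1, Ubr2, Ulk1, Foxo4, Rgs2 and Angptl4 in mdx against WT, and for the adipocyte markers Cfd and Lep. It also holds for Fbxo40, Ctsl, Rgs2 and Angptl4 in dy2J against WT. Alternatives were pseudocounts of 0.1 and 0.5, no minimum, a minimum mean of 5 FPKM, quantile normalization, median-ratio rescaling, the compared groups alone, no trend, zeros kept, a replicate block and leaving out each library.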

Additional observations from a re-analysis of the deposited data

How the results depend on the processing

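The number of members called in mdx against WT (3) was 2 to 4 without any 1 library. In dy2J against WT (1) it was 0 to 3 without any 1 library and 0 under quantile normalization and with the replicate block. In dy2J against mdx (0) it was 0 without any 1 library and 1 under median-ratio rescaling and in a fit of the compared groups alone. Of 537 member differences recomputed, 506 kept their direction and their side of the threshold, 15 lost and 10 gained a call, and 6 changed sign. Those were Fbxo31 with its 0 in WT 1 kept (1.37 in mdx and 1.48 in dy2J, a shift made by that value), Trim63 in mdx without WT 2 (-0.38 to 0.10 leaving out 1 library), Fbxo30 in mdx under quantile normalization (-0.021), Ddit4 in mdx without WT 3 (-0.84 to 0.013) and Foxo1 in dy2J without WT 1 (-0.20 to 0.30), and for the last 4 the cause was not tested. The median difference of all genes in mdx against WT was 0.07, and -0.07 under quantile normalization. Of 378 recomputed list counts, 99 moved by over 1.5 times. Over all genes 606 were called in dy2J against WT without dy2J 1 and 2757 with it. In dy2J against mdx, 972 were called, and 162 and 257 without dy2J 1 and 2. Deviations of same-numbered libraries correlated from -0.18 to 0.14, and those of differently numbered libraries from -0.20 to 0.175. With 2 or 3 pools per group the deviations within a group are tied to each other. This check therefore cannot show whether replicate numbers mark a shared batch. With the replicate block 1906, 659 and 4384 genes were called in dy2J against WT, dy2J against mdx and mdx against WT. With depth unknown, error here is the spread between 2 or 3 pools.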
